A study of Callithrix jacchus with 4 samples.

Results

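*ANXA1* and *ANXA2*, which encode annexins A1 and A2, and *S100A6*, which encodes a small calcium-binding protein of the S100 family, were followed across the 7 annotated cell types of marmoset primary visual cortex (V1). They are 3 of the 32323 genes listed for the injured cohort, and all 3 are also among the 16383 genes listed for both cohorts. The genes were chosen by their level and their share of nuclei with a transcript, injured against control, so their values in that comparison are a description and carry no test.

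Single-nuclei RNA sequencing (snRNAseq) was performed on V1 gray matter of 3 adult marmosets (F1565, F1619 and F1711, 1 library each) 7 days after endothelin-1 (ET-1), a peptide that constricts blood vessels and was injected to cause focal ischemia. The control was V1 of 3 adult marmosets without a lesion, whose nuclei were pooled before sequencing as 1 library, which gives no measure of how control animals vary. Dissected injured tissue held both the core of the lesion and the tissue around it. Nuclei of the cohorts were isolated by different protocols, and only control nuclei were sorted by flow cytometry. The cohorts were also processed at different facilities. Injured libraries were sequenced paired-end on an Illumina instrument and control single-end on an MGI instrument. Protocol, facility, sequencer and injury therefore cannot be told apart.

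Annexins bind membrane phospholipids when calcium rises, and they take part in membrane repair, vesicle traffic and the anchoring of actin to the membrane. Annexin A1 is also secreted and dampens inflammation through formyl peptide receptors. Annexin A2 binds S100A10 and, at the cell surface, plasminogen and its activator, while S100A6 binds annexins and calcyclin-binding protein. In brain, annexins A1 and A2 and S100A6 are known from reactive glia, vessels and phagocytes more than from neurons.

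The libraries held 12527, 7500 and 9510 injured nuclei (F1565, F1619 and F1711) and 8610 control nuclei, with a median of 3531, 4504.5 and 4229.5 UMIs (unique molecular identifiers, the tags that mark single captured transcripts) against 2117. Pairs of libraries shared 15 to 27 cell barcodes. Levels are given as CPM, in which a gene's UMIs, summed over a library's nuclei of 1 cell type, are divided by all UMIs of those nuclei and scaled to a fixed total. Defining markers of astrocytes, excitatory neurons (ExN), inhibitory neurons (InN), microglia, oligodendrocytes (Oligo) and oligodendrocyte precursors (OPC) were present in the nuclei that carry those names in every library.

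The nuclei annotated Endo did not carry 1 set of markers. Summed over 6 endothelial genes (*FLT1*, *IGFBP7*, *SLC2A1*, *CLDN5*, *PECAM1* and *VWF*), they held 5881, 5820 and 6845 CPM in injured animals and 1053 CPM in the control library. Summed over 6 fibroblast genes (*COL1A1*, *COL1A2*, *COL3A1*, *DCN*, *LUM* and *LAMA2*), they held 1315, 2266 and 2521 CPM against 5287 CPM, with 1 gene of each list not listed for control. Of the 181 control nuclei annotated Endo, 155 formed a deposited cluster (cluster 15) with 5880 CPM of fibroblast and 403 CPM of endothelial genes, and 26 formed a cluster (cluster 22) with 6850 CPM of endothelial and no fibroblast UMI. The 4444 injured Endo nuclei included cluster 14 with 11475 CPM of endothelial genes, cluster 20 with 8121 CPM of fibroblast genes, and cluster 19, whose 2005 nuclei held 5952 CPM of excitatory neuron genes and 274 CPM of endothelial genes at a median of 1150 UMIs. Endo is therefore kept below as the name of an annotation, and its values are also given by cluster.

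*ANXA1* UMIs numbered 2169, 1543 and 1933 in the injured libraries (F1565, F1619 and F1711, the order kept throughout) and 30 in the control library. In astrocytes the level was 156, 160 and 204 CPM against 12.7 CPM in control, a 13.6-fold ratio of the injured mean (log2 ratio 3.77 ± 0.22, SD over 3 animals, 11 control UMIs). All injured animals lay above the control library. In Endo nuclei *ANXA1* reached 158, 147 and 112 CPM against 39.2 CPM, a 3.54-fold ratio that rested on 8 control UMIs. At 1000 UMIs per nucleus this Endo ratio shrank from a log2 value of 1.82 to 0.58, since the control level rose to 82.4 CPM in the 85 nuclei that were deep enough.

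In microglia *ANXA1* stood at 108, 59.8 and 61.8 CPM, and none of 129 control nuclei held a UMI. By the 3-count limit this allows a share with a UMI of up to 2.33% at their median of 793 UMIs, for counting error only. Taking 3 UMIs in all control microglia as the floor, injured microglia were at least 3.04-fold higher. OPC held 30.7, 19.7 and 13.6 CPM against 0 control UMIs, at least 1.28-fold higher by the pooled UMIs of the animals, as for all such bounds here, with F1711 under the floor of 16.05 CPM. Oligo held 9.59, 7.90 and 8.92 CPM against 0 (at least 3.74-fold higher). Neurons had the lowest levels of the 7 cell types. ExN held 7.01, 4.80 and 4.87 CPM against 0.585 CPM (9.50-fold, 10 control UMIs). InN held 5.13, 4.40 and 5.94 CPM against 1 UMI in control (16.2-fold, counting interval 2.80 to 649.8). Ratios with a counting interval, here and below, use the pooled UMIs of the animals, and the other ratios use the injured mean. By mean injured level the order was Astro, Endo, microglia, OPC, Oligo, ExN and InN. The ranges of Astro and Endo overlapped, as did those of ExN and InN, and the other neighbours in the order did not.

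*ANXA2* UMIs numbered 3244, 3113 and 3466 in the injured libraries and 140 in control. In astrocytes the level was 166, 180 and 218 CPM against 3 UMIs or 3.47 CPM in control, a 55.3-fold ratio with a counting interval of 18.9 to 269. OPC, at 174, 167 and 173 CPM, held nearly the same level in each animal, against 1 control UMI (32.1-fold, interval 5.74 to 1267). In microglia the level was 174, 116 and 89.3 CPM against 1 control UMI (15.4-fold, interval 2.75 to 607). Astrocytes, OPC and microglia thus stood above the control library in every animal. Oligo held 32.4, 37.3 and 34.5 CPM against 2 control UMIs (22.2-fold, interval 6.08 to 185). ExN held 13.7, 17.6 and 15.8 CPM against 4.33 CPM (3.63-fold, 74 control UMIs), and InN held 15.4, 18.8 and 19.3 CPM against 5.19 CPM (3.44-fold, 16 control UMIs).

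Endo nuclei were the exception. There *ANXA2* measured 175, 291 and 253 CPM against 211 CPM in control (43 UMIs), so the control library lay within the injured range and the log2 ratio was 0.19 ± 0.38 (SD, n = 3). Of the 140 control UMIs of *ANXA2*, 30.7% came from Endo nuclei, which were 2.10% of control nuclei. Between the fibroblast-marked clusters alone, injured cluster 20 held 354, 589 and 566 CPM and control cluster 15 held 229 CPM, which lay below all 3 animals. In the order of mean injured level, Endo, Astro, OPC and microglia came first with ranges that overlapped from one to the next. Oligo followed with no overlap on either side, and InN and ExN came last and overlapped.

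*S100A6* was nearly without UMIs in the control library, with 5 UMIs over 8610 nuclei, against 4231, 4603 and 4074 UMIs in injured libraries. The largest levels were in Endo nuclei, at 346, 673 and 407 CPM against 0 control UMIs (at least 30.1-fold higher). OPC followed at 316, 316 and 282 CPM against 0 (at least 18.9-fold higher). These were the highest *S100A6* levels outside Endo in every animal. Oligo held 115, 195 and 89.8 CPM against 1 UMI (176-fold, interval 31.5 to 6966), and microglia held 158, 109 and 90.8 CPM against 0 (at least 4.84-fold higher). Astrocytes held 65.6, 88.3 and 75.4 CPM against 1 UMI (65.1-fold, interval 11.7 to 2577).

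Neuronal *S100A6* was lower, at 22.3, 33.2 and 22.7 CPM in ExN and 28.4, 32.0 and 22.03 CPM in InN. The control library held 1 UMI in ExN (425-fold, interval 76.2 to 16802) and 2 UMIs in InN (41.7-fold, interval 11.4 to 345). Oligo and microglia overlapped in their injured ranges, as did InN and ExN, and no other neighbours did. F1619 had the highest *S100A6* level of the 3 animals in each cell type but microglia, by little in OPC. Injured levels were above the control library in all 3 animals in each cell type.

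**Figure D1:**
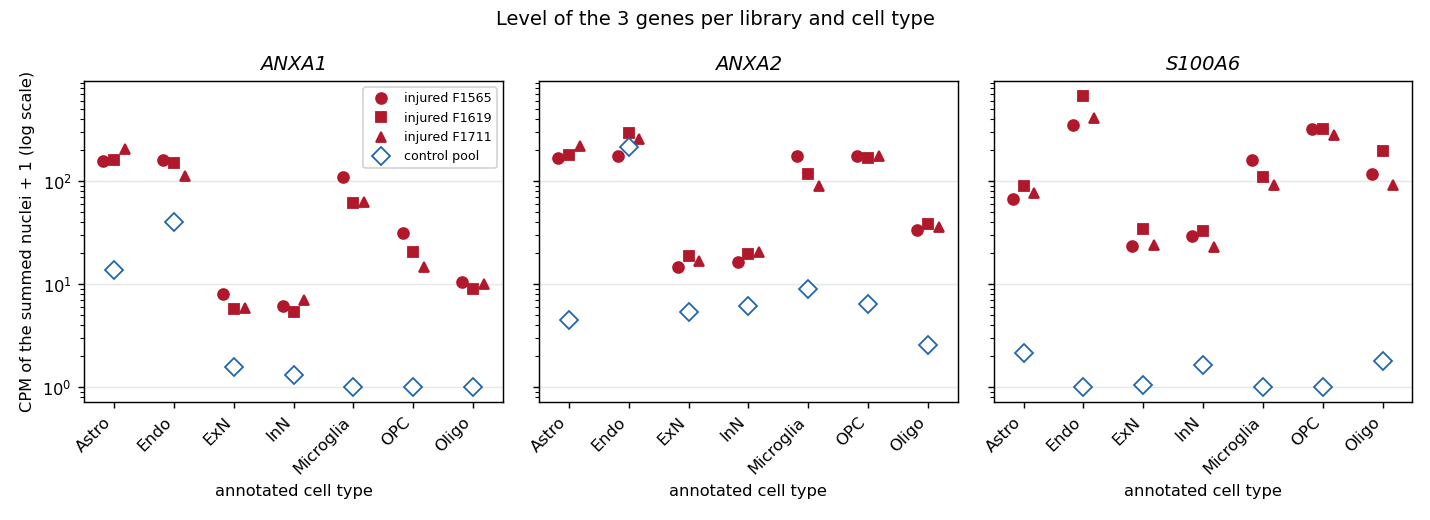
CPM plus 1 (log axis) of *ANXA1*, *ANXA2* and *S100A6* in nuclei summed per library and annotated cell type. Filled symbols are the 3 injured animals and open diamonds the control pool; the control diamond lies below all 3 animals everywhere except for *ANXA2* in Endo, where 211 CPM falls between 175 and 291 CPM.

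The cell types also differed in how the transcripts were spread over nuclei. Of injured astrocytes, 39.7% ± 9.0 (SD, n = 3) held an *ANXA1* UMI, 34.1% ± 5.3 an *ANXA2* UMI and 21.6% ± 5.8 an *S100A6* UMI, against 1.85%, 0.505% and 0.168% of control astrocytes (median 3851 and 1183 UMIs). After random thinning of every nucleus to 1000 UMIs the shares were 12.6% ± 2.4, 13.7% ± 1.5 and 7.02% ± 1.1, against 1.10%, 0.552% and 0.276%. The thinned astrocyte shares lay above the upper ends of the control intervals in all 3 animals. This is a description and no test, since such shares chose the genes. Those 95% Clopper-Pearson intervals, which cover counting error only, reached 2.80%, 1.98% and 1.53% in control astrocytes. Other cell types did not all do so. In Endo the thinned *ANXA2* share was 12.01%, 19.97% and 17.6% against 20.0% in control, and that of *ANXA1* 8.99%, 14.5% and 9.17% against 8.24%, with control intervals up to 30.1% and 16.2%. For *ANXA1* all 3 animals also lay under the upper control ends in microglia (9.49%) and OPC (4.51%), where no control nucleus held a UMI. F1711 lay under the microglial end for *ANXA2* (8.65%) and *S100A6* (8.90%) as well, and F1619 under the ends for *ANXA1* in Oligo (0.577% against 0.787%) and InN (0.513% against 0.603%).

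Shares in neurons serve as a reference for low levels. Of injured ExN, the deepest nuclei at a median of 5949 UMIs, 3.25% held an *ANXA1* UMI, 9.10% an *ANXA2* UMI and 14.8% an *S100A6* UMI. At 1000 UMIs these were 0.674%, 1.51% and 2.87%. *S100A6* reached 26.5% ± 6.8 in Endo, 19.2% ± 5.2 in OPC, 11.4% ± 4.4 in Oligo and 11.1% ± 2.5 in microglia at 1000 UMIs, each above the ExN share. Among ExN nuclei with *S100A6*, 1190 of 1288 held a single UMI and 14 held 3 or more. Among OPC nuclei with *S100A6*, 159 of 527 held 3 or more, and these carried 70.2% of its OPC UMIs. Among Endo nuclei with *S100A6*, 577 of 1799 held 3 or more and carried 67.9%. The part of RNA free in the suspension in the neuronal UMIs was not tested.

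**Figure D2:**
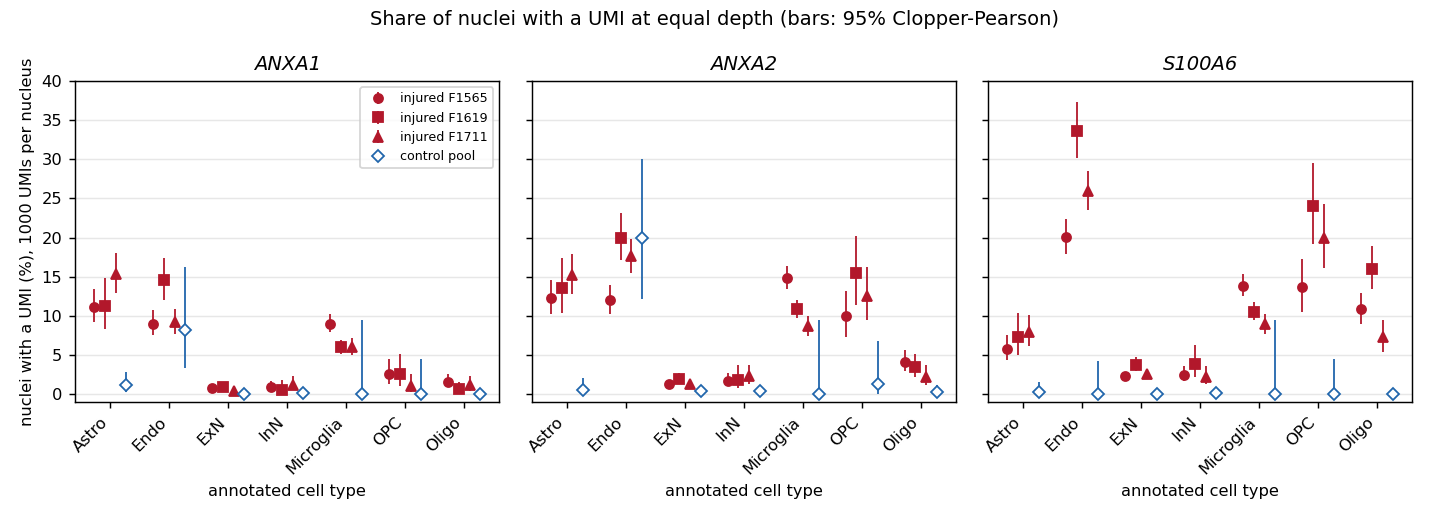
Share of nuclei with a UMI (%) after each nucleus was thinned to 1000 UMIs, per library and cell type, with 95% Clopper-Pearson intervals. Control astrocytes sit at 1.10%, 0.552% and 0.276% for the 3 genes, below each injured animal; the wide control intervals in microglia (37 nuclei), OPC (80 nuclei) and Endo (85 nuclei) come from few deep nuclei.

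In astrocytes, OPC and Endo a minority of the nuclei with *ANXA2* carried much of its transcript. For *ANXA2*, 210 of the 702 positive astrocytes held 3 or more UMIs and carried 61.7% of its astrocyte UMIs, with up to 26 in 1 nucleus. In OPC, 117 of 380 positive nuclei held 3 or more and carried 60.8%. In Endo 281 of 1307 did and carried 49.8%, and in microglia 302 of 2071 did and carried 34.4%. For *ANXA1* in astrocytes, 169 of 807 positive nuclei carried 47.1%. In OPC 4 of 83 *ANXA1* nuclei held 3 or more, and in Oligo 4 of 193 *ANXA2* and 0 of 53 *ANXA1* nuclei did. In neurons 7 of 803 *ANXA2* ExN and 0 of 197 *ANXA2* InN held 3 or more. By source, microglia gave 35.3% of all injured *ANXA1* UMIs and 34.2% of *ANXA2* UMIs from 26.2% of the nuclei. Astrocytes gave 28.02% of *ANXA1* UMIs from 7.13% of the nuclei, and Endo gave 37.9% of *S100A6* UMIs from 15.05% of them.

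Within Endo and microglia the levels differed between deposited clusters of the injured cohort. In Endo cluster 14, with endothelial markers, *ANXA1* measured 227, 181 and 120 CPM, *ANXA2* 172, 198 and 164 CPM and *S100A6* 496, 757 and 485 CPM. The fibroblast-marked cluster 20 held 156, 175 and 145 CPM of *ANXA1* and 181, 522 and 303 CPM of *S100A6*. *ANXA2* in cluster 20, given above, lay above cluster 14 in every animal, and *S100A6* lay below it in every animal. Cluster 19, with neuronal markers, differed between animals, from 73.1 CPM (F1565) to 252 CPM (F1619) for *ANXA2* and from 184 to 650.2 CPM for *S100A6*.

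The control fibroblast-marked cluster 15 held 43.6 CPM of *ANXA1* and no *S100A6* UMI, both below all 3 animals of cluster 20. The endothelial-marked control cluster 22 was too small for a comparison, since 3 UMIs there correspond to 146 CPM and it held 1 *ANXA2* UMI and none of the others. In microglia, cluster 21 held 13.4, 21.2 and 24.4 CPM of *ANXA1*, against 158, 75.9 and 82.8 CPM in cluster 6 and 77.2, 79.0 and 73.1 CPM in cluster 16. *ANXA2* and *S100A6* were lowest in cluster 21 as well, at 17.8, 40.4 and 34.6 CPM and at 40.6, 44.2 and 51.8 CPM. Genes of peripheral myeloid cells summed to 1481 CPM in cluster 6, 296 CPM in cluster 16 and 743 CPM in cluster 21. Genes of T cells summed to 1141 CPM in cluster 16, and microglial genes to between 2720 and 3212 CPM in all 3. The part of these other cells in the microglial levels was not tested.

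**Figure D3:**
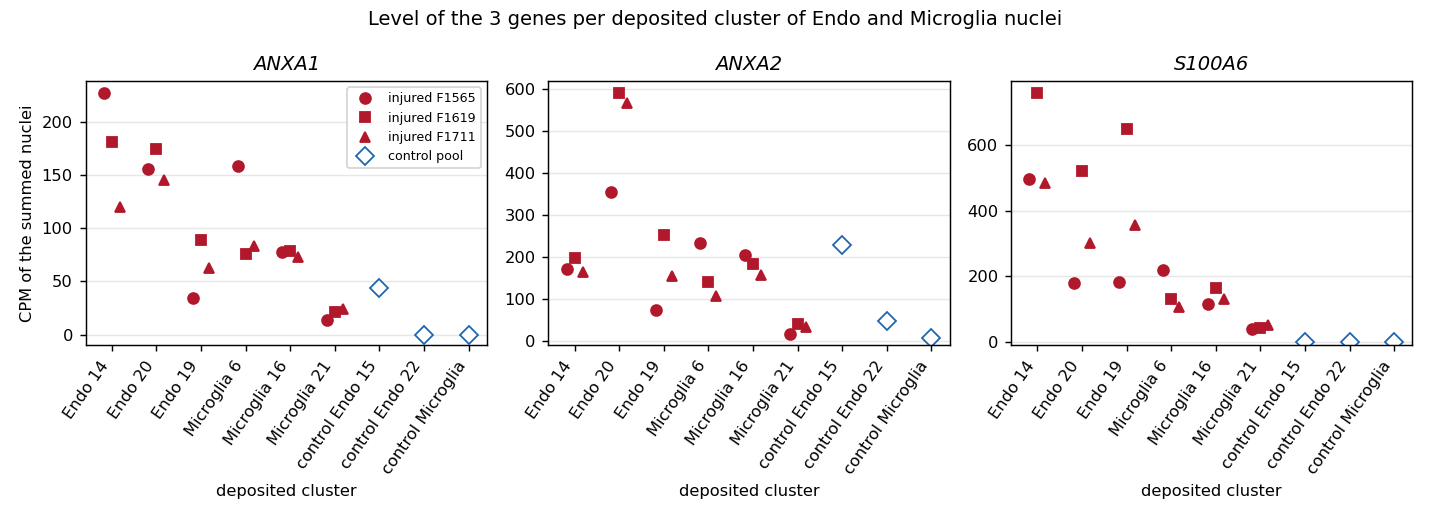
CPM of the 3 genes per deposited cluster, for each injured animal (filled) and for the control pool (open). *ANXA2* is highest in the fibroblast-marked Endo cluster 20 (354 to 589 CPM), above control Endo cluster 15 at 229 CPM, and all 3 genes are low in microglial cluster 21.

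The other annexins and S100 genes, and proteins known to bind or act with annexins, were tested between the cohorts with edgeR on the summed counts. Of 153 tests of a gene in a cell type that held enough counts, 3 were called higher and 3 lower. Genes were called at an adjusted p under 0.01 when the fold change passed 0.25 on the natural-log scale in either direction and 10% or more of nuclei in 1 of the cohorts held a UMI. The spread of the injured libraries was assumed for the single control library. Over all genes tested, 1.12% were called higher and 0.378% lower in astrocytes, 4.19% and 1.99% in Endo, 0.619% and 0.155% in Oligo, 2.61% and 1.25% in ExN, 2.20% and 1.22% in InN, 0.0610% and 0.00871% in OPC, and 0% and 0% in microglia, where 1810 and 1049 genes had an unadjusted p below 0.05. The counts depended on the animals: without F1565 12 were called higher and 5 lower, without F1711 6 and 3, and without F1619 2 and 2.

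*MYOF*, encoding myoferlin, a membrane-repair protein with calcium-binding domains, was the sole member of the lists called in astrocytes. It measured 102, 186 and 180 CPM against 21.96 CPM in control, with a fitted log2 fold change of 2.94 ± 0.46 (SE, edgeR adjusted p = 0.00998). Without F1619 its adjusted p was 0.0178, and at 1000 UMIs it was 0.0144 (log2 fold change 2.70). *MYOF* passed the limit on nuclei through the injured cohort alone, with a UMI in 3.03% of control nuclei, so its call is no independent support for a difference. Astrocyte sums also held 313 to 451 CPM of endothelial and 202 to 302 CPM of microglial markers against 124 and 90.2 CPM in control. In control 1 gene of each of these 2 lists was not listed. Astrocyte markers summed to 7652 to 9194 CPM against 14713 CPM. *MYOF* stood at 370 to 418 CPM in injured Endo and 261 to 372 CPM in injured microglia, and the part of these cells in the astrocyte value was not tested. *ANXA4* (log2 fold change 2.61), *ANXA5* (1.75) and *S100B* (−1.34) did not pass by edgeR. DESeq2 called *ANXA5* and *S100B* besides *MYOF*. The 22 list members tested in astrocytes had a median log2 fold change of 0.63, against 0.05 over all genes.

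In Oligo, *PLAT*, which encodes tissue plasminogen activator, measured 81.8, 69.4 and 55.9 CPM against 4 control UMIs or 3.13 CPM. The fitted log2 fold change was 4.54 ± 0.45 (SE, adjusted p = 0.00424). Here too the limit on nuclei was passed through the injured cohort alone, with a UMI in 0.178% of control nuclei. At 1000 UMIs the limit on nuclei was missed and the call lost (log2 fold change 4.85). Oligo sums also held 151 to 213 CPM of endothelial and 272 to 373 CPM of microglial markers, against 92.4 and 75.2 CPM in control. In control 1 gene of each of these lists was not listed. The part of these cells in the Oligo *PLAT* value was not tested. In Endo nuclei *PLAT* measured 644, 858 and 786 CPM against 255 CPM (1.71 ± 0.28, adjusted p = 0.00488). A further 3 list members were called lower in Endo. *ANXA7* measured 111, 116 and 119 CPM against 363 CPM (−1.52 ± 0.20, adjusted p = 0.00198). *CAPN2*, the calpain-2 protease, measured 59.4, 39.1 and 54.4 CPM against 196 CPM (−1.79 ± 0.33, adjusted p = 0.00758), and *MYOF* 418, 370 and 378 CPM against 965 CPM (−1.18 ± 0.21, adjusted p = 0.00648). Without F1619 the Endo *MYOF* adjusted p was 0.0125. At 1000 UMIs *MYOF* (−1.32, adjusted p = 0.0102) and *CAPN2* (−1.95, 0.0154) were not called in Endo. These Endo differences lay beside the unequal endothelial and fibroblast markers of the cohorts given above, whose part in them was not tested. The median log2 fold change in Endo was 0.26 over the lists and 0.26 over all genes.

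None of the list members was called in ExN, InN, microglia or OPC by edgeR or by DESeq2. At an unadjusted p below 0.05 there were 3 higher and 5 lower in ExN, 3 and 6 in InN, 3 and 2 in microglia, and 6 and 0 in OPC. *PLAT* in ExN had an adjusted p of 0.00815 (log2 fold change 1.85) but a UMI in fewer than 10% of nuclei. *MYOF* in OPC measured 147, 187 and 138 CPM against 1 control UMI, with an adjusted p of 0.0211, and met the limit on nuclei through the injured cohort alone. Its adjusted p was 4.12e-11 without F1565, 5.04e-05 without F1711 and 0.0702 without F1619. The medians over the lists were 0.08 in ExN, −0.05 in InN, 0.68 in microglia and 0.58 in OPC, against 0.00, 0.00, 0.42 and 0.16 over all genes.

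Many S100 genes are listed for the injured cohort alone, 10 of the 18 relatives, so no control value stands beside them. Of these, *S100A4* was highest in Endo nuclei at 12.9, 37.8 and 19.8 CPM. *S100A8* and *S100A9*, alarmins of neutrophils and monocytes, were highest in microglia at 19.2, 37.5 and 38.5 CPM and at 42.7, 60.5 and 57.2 CPM. *S100A10* and *S100A11*, the S100 partners of annexins A2 and A1, were not analysed here.

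Nuclei of the injured animals were next divided by whether they held an *ANXA2* UMI, and the classes were compared within animals by edgeR with animal as a block. Which genes accompany *ANXA2* in a nucleus did not choose the members, and both classes come from 1 library. With *ANXA2* were 258, 146 and 298 astrocytes, 415, 332 and 560 Endo nuclei, 739, 841 and 491 microglia, and 102, 119 and 159 OPC. Such nuclei were deeper, with medians of 4140.5, 6171.5 and 6102.5 UMIs in astrocytes against 2666, 4725 and 4046 without *ANXA2*. For *ANXA1*, *S100A6* and the list members, sums of thinned nuclei and of nuclei paired by depth are therefore given where they changed a call. At 1000 UMIs the classes were drawn again from the thinned counts, so many *ANXA2* nuclei joined the class without it. Of F1565 astrocytes, 258 held an *ANXA2* UMI before thinning and 110 after. Pairing by depth kept the classes as first drawn. Where thinning lost a call of *ANXA1* or *S100A6*, the depth-paired value is given too. The other genes named, the shares of all genes called and the overlaps of lists come from all UMIs of all nuclei. No value at equal depth is given for them. The pairing left a gap where few deep nuclei lacked *ANXA2*, with medians in OPC of 4857, 6641 and 6926 UMIs against 4126.5, 5636 and 4906, and in astrocytes of 4140.5, 6171.5 and 6102.5 against 3572, 5890.0 and 4946.5.

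*ANXA1* was higher in *ANXA2* nuclei of 4 cell types. In astrocytes it measured 242, 214 and 258 CPM with *ANXA2* against 105, 119 and 155 CPM without, a log2 fold change of 0.93 ± 0.11 (SE, adjusted p = 1.92e-06). In Endo the difference was 1.06 ± 0.13 (adjusted p = 9.39e-06), in microglia 1.04 ± 0.09 (1.37e-07) and in OPC 1.46 ± 0.35 (0.00591), each with 3 of 3 animals higher. The OPC difference was largest in F1565, at 66.6 against 11.9 CPM, and without that animal it was 0.77 (adjusted p = 0.198). Without F1711 the OPC adjusted p was 0.0118, with nuclei paired by depth it was 0.0272, and with DESeq2 it was 0.0924. At 1000 UMIs the call was lost in astrocytes (0.76, adjusted p = 0.0264) and microglia (0.61, 0.0415). With nuclei paired by depth it was kept in astrocytes (0.81, adjusted p = 1.11e-05) and microglia (1.01, 9.69e-07). In ExN the difference was 0.24 ± 0.29 (adjusted p = 0.977), and InN and Oligo held too few *ANXA1* UMIs for a test.

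*S100A6* was higher in *ANXA2* nuclei of 5 cell types. In OPC it measured 738, 464 and 391 CPM with *ANXA2* against 95.4, 175 and 170.4 CPM without (log2 fold change 1.78 ± 0.22, SE, adjusted p = 7.48e-06). In Endo it measured 567, 1023 and 513 CPM against 212, 406 and 313 CPM (1.15 ± 0.14, adjusted p = 7.41e-06). The classes did not overlap in either cell type. In microglia the difference was 1.11 ± 0.10 (adjusted p = 4.47e-07), in Oligo 1.13 ± 0.17 (2.54e-07) and in astrocytes 0.65 ± 0.13 (0.00117). The astrocyte difference was −0.016 at 1000 UMIs (adjusted p = 0.989) and 0.64 with nuclei paired by depth (0.00308). Without F1619 its adjusted p was 0.0338. In OPC the thinned value was 0.69 (adjusted p = 0.135) and the depth-paired value 1.68 (2.03e-06). The thinned value in Oligo was 0.81 (adjusted p = 0.932). In Oligo the difference kept its size while the call was lost with nuclei paired by depth (1.14, adjusted p = 0.0596), without F1619 (1.10, 0.0114) and with DESeq2 (1.14, 0.0159). Neurons gave 0.12 ± 0.13 in ExN and −0.17 ± 0.29 in InN, with adjusted p of 0.977 and 0.9998.

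In Endo and microglia the same comparison was made within clusters, a choice made after the data were seen. *ANXA1* differed by 0.62 in Endo cluster 14 (adjusted p = 0.00336), 1.79 in cluster 19 (0.00127) and 0.60 in cluster 20 (0.216). *S100A6* differed by 0.72 (0.000153), 2.66 (5.52e-06) and 1.26 (0.00543). In microglia *ANXA1* differed by 0.59 in cluster 6 (adjusted p = 0.000169), 0.44 in cluster 16 (0.464) and 1.67 in cluster 21 (0.000329), and *S100A6* by 0.84 (7.80e-07), 0.35 (0.613) and 1.14 (0.0193). The differences were positive in all of these clusters, and the smallest were those of microglial cluster 16. In Endo clusters 14 and 20 the *ANXA1* values, at 0.62 and 0.60, were below the 1.06 of all Endo nuclei.

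**Figure D4:**
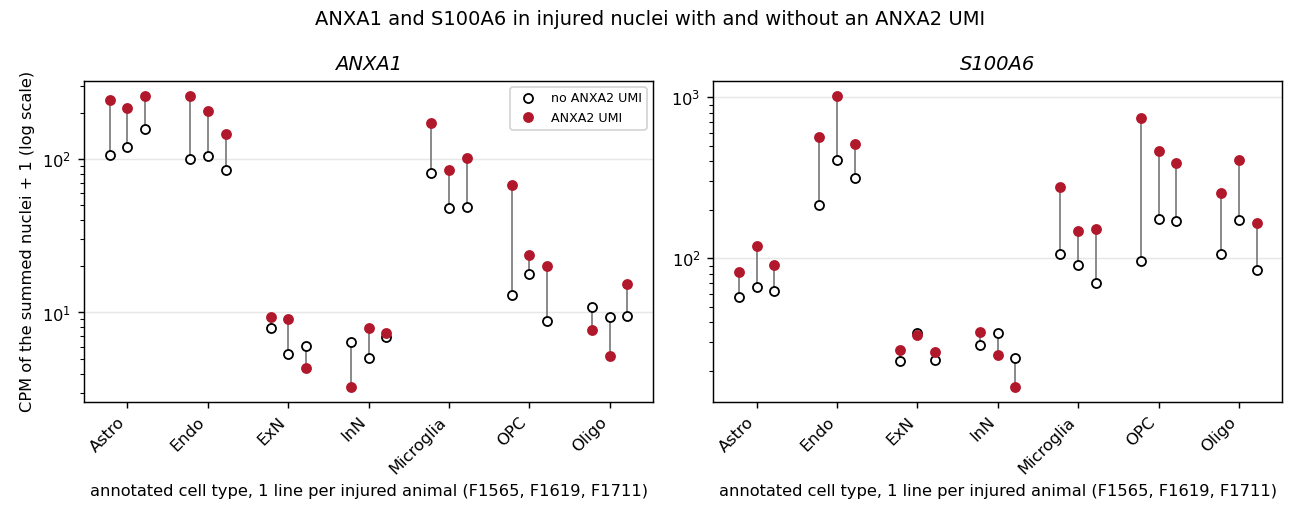
CPM plus 1 (log axis) of *ANXA1* and *S100A6* in injured nuclei with (filled) and without (open) an *ANXA2* UMI; each line joins the classes of 1 animal. Filled points lie above open points in all 3 animals for both genes in Astro, Endo, Microglia and OPC and for *S100A6* in Oligo, and the neurons show no common direction.

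As a share of nuclei, 56.7% ± 6.8 of astrocytes with *ANXA2* also held an *ANXA1* UMI, against 31.1% ± 9.1 of those without (SD, n = 3). At 1000 UMIs these were 19.9% ± 1.6 and 11.4% ± 2.4, higher with *ANXA2* in 3 of 3 animals. For *S100A6* in Endo the thinned shares were 41.3% ± 14 and 23.3% ± 4.6, again in 3 of 3 animals, and for *S100A6* in astrocytes they were 6.52% ± 4.1 and 7.08% ± 0.77. All 3 genes were found together in 124 of 2107 astrocytes, 387 of 4444 Endo nuclei, 314 of 7733 microglia and 40 of 1136 OPC. They were found together in 4 of 9436 ExN and 1 of 2462 Oligo.

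Over all genes tested, 5.45% were called higher with *ANXA2* in astrocytes, 6.77% in Endo, 2.41% in microglia, 5.57% in OPC, 0.216% in Oligo, 0.00993% in InN and 0% in ExN, where 381 had an unadjusted p below 0.05. Called lower were 4.55% in astrocytes, 6.10% in Endo, 2.02% in microglia, 5.62% in OPC, 0.114% in Oligo, 0.00993% in InN and 0% in ExN, where 303 had an unadjusted p below 0.05. Against these shares, 18 of 138 tests of relatives and partners were called higher and 3 lower by edgeR, and 13 were called by DESeq2. *ANXA4* and *ANXA5* were called higher by edgeR in astrocytes (1.17 and 0.86), Endo (0.65 and 0.57), microglia (0.40 and 0.64) and OPC (1.10 and 0.66). In OPC neither was called by DESeq2 (adjusted p = 0.0266 and 0.0812) or with nuclei paired by depth (0.0142 and 0.0179). *MYOF* was called in the same 4 cell types, at 1.97, 1.06, 0.49 and 2.41, and by DESeq2 in all 4. At 1000 UMIs *MYOF* in astrocytes, Endo and OPC and *ANXA5* in Endo were called, and no other of these list members. *ANXA6*, *ANXA7* and *ANXA11* were not called in any cell type.

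By edgeR, OPC had the most list members called, with 7 higher and 1 lower of 18 tested. By DESeq2 it did not, with 3 called in OPC, 3 in astrocytes, 3 in Endo and 4 in microglia. In OPC *AHNAK2*, a large scaffold protein gene (1.90), and *DYSF*, encoding the membrane-repair protein dysferlin (1.20), were higher by edgeR. *PLAT* (1.03) and *S100B* (0.71) were also higher, and *FPR2*, a formyl peptide receptor (−1.38), was lower. DESeq2 called *AHNAK2*, *PLAT* and *MYOF* in OPC, and not *S100B* (adjusted p = 0.0185), *DYSF* (0.0176) or *FPR2* (0.0144). *S100B* went the other way in astrocytes (−0.61 ± 0.15, edgeR adjusted p = 0.00563), and was not called there by DESeq2 (0.0918) or with nuclei paired by depth (0.0104). In microglia *S100A9* was lower with *ANXA2* (−1.78 ± 0.13, adjusted p = 2.89e-08) and *CAPN1*, the calpain-1 protease, higher (0.52), the latter not by DESeq2 (adjusted p = 0.110). *ANXA3* was called only in Endo (0.50), and was not called in microglia or ExN, the other cell types where it was tested. Its Endo call was lost with DESeq2 (adjusted p = 0.0173) and with nuclei paired by depth (0.19, 0.237). No list member was called in ExN, InN or Oligo by edgeR or DESeq2, with 3, 1 and 5 at an unadjusted p below 0.05.

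**Figure D5:**
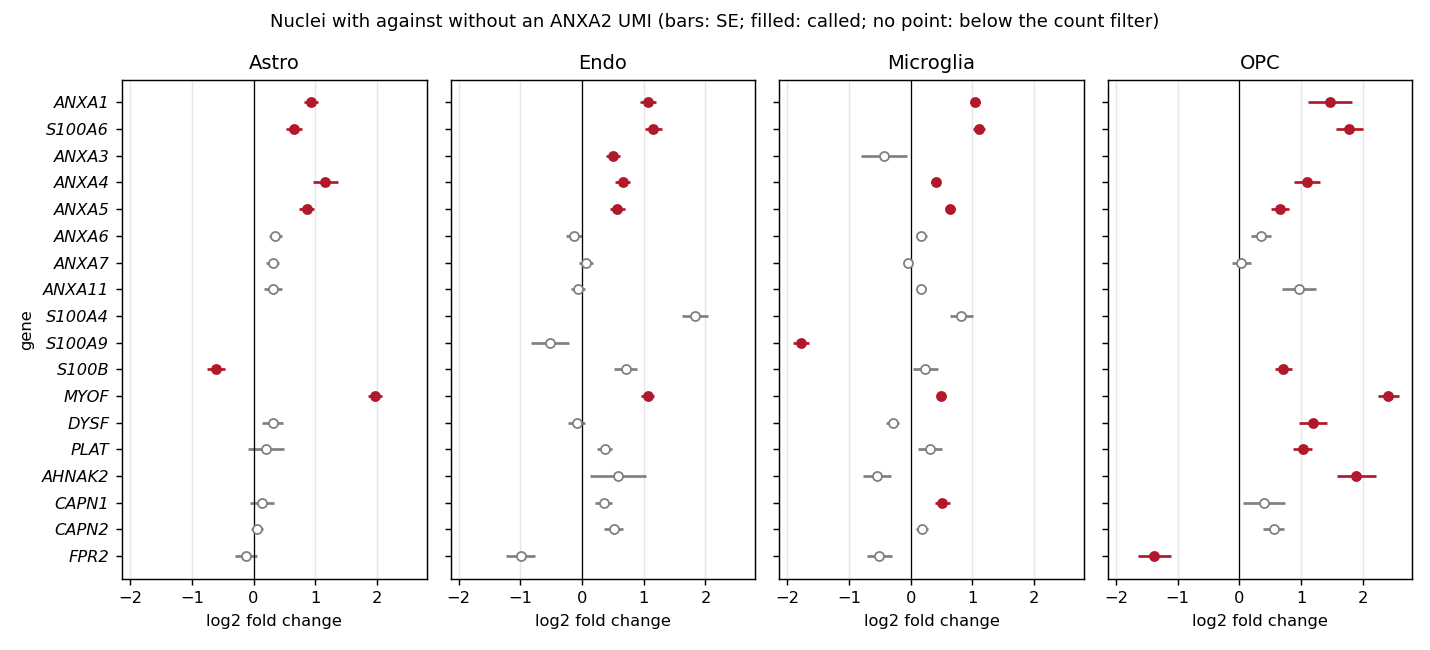
Log2 fold change (SE bars) of *ANXA1*, *S100A6* and 16 relatives and partners in injured nuclei with against without an *ANXA2* UMI, in 4 cell types. Filled red points were called by edgeR; *ANXA4*, *ANXA5* and *MYOF* are called higher in all 4, and *S100B* lies at −0.61 in Astro and 0.71 in OPC.

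The genes with the largest differences varied by cell type. In astrocytes with *ANXA2* the largest rises were *ALDH1A3*, a retinoic acid-forming enzyme (3.13 ± 0.24, adjusted p = 3.46e-09), *NFKBIZ*, *RAB39A*, *PPP1R2*, *ITGA5*, the interferon-induced tryptophan enzyme *IDO1*, *TNFAIP3*, the matrix protein gene *TNC*, *GEM* and *VCAM1*. The largest falls were *C2orf72* (−2.18), *SLC39A12*, *SDS*, *BCAN* and *ETNPPL*. Summed astrocyte markers were lower with *ANXA2*, at 5210 to 6415 CPM against 9409 to 11757 CPM without. Of the 6 markers, 4 were lower and 1 higher in every animal. The part of these markers in the other differences was not tested.

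In OPC with *ANXA2* the largest rises included the Wnt inhibitor *DKK1* (3.36 ± 0.26, SE, edgeR adjusted p = 3.97e-08), *TNFRSF12A* (3.31), *TMEM200A*, 2 genes without a symbol, the caveolin gene *CAV1*, *MYOF*, *VAMP5* and *ITGA5*. The largest falls were *GPR17*, a receptor of committed precursors (−3.69), *BMPER*, *BCAN*, *PODXL2* and *FYB2*. The OPC markers *PDGFRA*, *PCDH15* and *MEGF11* summed to 2241 to 2514 CPM with *ANXA2* and 4300 to 4488 CPM without, and all 3 were lower in every animal. Astrocyte markers summed to 962 to 1559 CPM against 778 to 1144 CPM, ranges that overlapped. Of these 6 markers, 2 were higher and 1 lower with *ANXA2* in every animal.

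In Endo the leading rises were *PDGFRA* (2.29), *SULF1*, *SLPI*, the collagen genes *COL6A3*, *COL3A1* and *COL5A2*, *PRG4*, *STRA6*, *BNC2* and *CEMIP*, and the leading falls included *CAMK2A* (−2.59), *SRRM4*, *SLC35F3* and *KCNJ6*. All 6 fibroblast markers were higher with *ANXA2* in every animal (1942 to 3780 CPM against 936 to 1652 CPM). Of 6 endothelial markers, 5 were also higher in every animal and 0 lower (6693 to 7089 CPM against 5150 to 6661 CPM). All 6 excitatory neuron markers were lower (962 to 1115 CPM against 2903 to 3734 CPM). The comparison within clusters, above, was made for *ANXA1* and *S100A6* alone and used all UMIs. The clusters were themselves mixed, with 584 CPM of fibroblast genes in cluster 14 and 884 CPM of endothelial genes in cluster 20. The part of these cells in the Endo differences was therefore not tested.

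In microglia *S100A6* and *ANXA1* were themselves among the 10 largest rises, with *ITGA7*, the protease gene *CTSK* (1.01), the complement genes *CFD* (0.94) and *C1S* (0.91), the ubiquitin-like *ISG15* (0.94) and 3 genes without a symbol. The largest falls were *WDR49* (−2.36), *CDH10*, *KCNIP1*, *EMID1* and *UGGT2*. In Oligo *S100A6* was again among the 10 largest rises, with *CD44* (1.53), *CASP4*, *DOCK2*, *CIITA*, *GBP1*, *IGFBP3*, *WARS* and 2 genes without a symbol, and *ARFIP1*, *FAM13A*, *DTX1*, *COLGALT2* and *FAM171A1* fell. In Oligo all 5 oligodendrocyte markers were lower with *ANXA2* in every animal (8955 to 15227 CPM against 11589 to 16813 CPM). T cell markers summed to 41.8 to 193 CPM against 15.2 to 24.0 CPM, with 3 of 6 higher and 1 lower in every animal. The Oligo class with *ANXA2* held 67, 72 and 54 nuclei. The part of these cells in the Oligo differences was not tested. Peripheral myeloid markers were 770 to 1425 CPM with *ANXA2* and 614 to 1204 CPM without in microglia. Of these 6 genes, 4 were higher and 2 lower with *ANXA2* in every animal. Of 5 microglial markers there, 1 was higher and 3 lower in every animal. In InN *KCNH8* alone met the rule, and was lower (−1.08).

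Lists of genes called higher with *ANXA2* shared members between cell types. Astrocytes and OPC shared 222 genes, 38.5% of the 577 astrocyte genes and 42.0% of the 528 OPC genes, where 5.45% and 5.57% of all genes tested were called higher. Endo and OPC shared 173, which were 21.5% and 32.8% of their lists. Astrocytes and Endo shared 140, which were 24.3% of the astrocyte list and 17.4% of the 803 Endo genes. Astrocytes and microglia shared 56, which were 9.71% of the astrocyte list and 18.5% of the 302 microglial genes. Microglia shared 76 with Endo, 25.2% of the microglial and 9.46% of the Endo list, and 62 with OPC, 20.5% of the microglial and 11.7% of the OPC list. Common to all 4 were 20 genes, among them *ANXA1*, *ANXA4*, *ANXA5*, *S100A6*, *MYOF*, the hyaluronan receptor gene *CD44*, *CD63*, *LGALS3*, *LMNA*, *IQGAP1* and *VIM*. The cell types share libraries, and nuclei with *ANXA2* were deeper in each of these 4, so the overlaps are a description.

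Injured astrocytes were also divided by *RTN4*, the gene of the neurite outgrowth inhibitor Nogo, at a log-normalized value above 1. The study splits astrocytes by this gene, and the comparison of the classes within injured animals was made here. In the 675, 337 and 585 positive astrocytes *ANXA2* measured 196, 189 and 251 CPM, against 39.5, 120 and 79.4 CPM in the 244, 65 and 201 negative ones. It was higher by a log2 fold change of 1.54 ± 0.17 (SE, edgeR adjusted p = 1.92e-08) in 3 of 3 animals, where 1.70% of all genes tested were called higher and 1.54% lower. At 1000 UMIs, with the *RTN4* classes drawn again from the thinned counts, the difference was 0.83 (adjusted p = 0.000377). With DESeq2 the adjusted p of *ANXA2* was 0.0234. *ANXA1* measured 174, 163 and 219 CPM against 80.7, 137 and 144 CPM (0.65 ± 0.14, adjusted p = 0.00179).

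The *ANXA1* call with *RTN4* was lost without F1565 (0.47, adjusted p = 0.160), without F1711 (0.69, 0.0244), at 1000 UMIs (0.46, 0.176) and with DESeq2 (0.64, 0.0497). *S100A6* measured 70.5, 84.4 and 79.0 CPM against 44.8, 113 and 60.6 CPM, and F1619 went the other way (0.20 ± 0.19, adjusted p = 0.682). Of 17 relatives and partners tested, *ANXA4* (1.37 ± 0.31, adjusted p = 0.00318) and *MYOF* (1.34 ± 0.17, 2.68e-07) were called higher and none lower. At 1000 UMIs neither was called (1.06, adjusted p = 0.174, and 0.39, 0.398), and DESeq2 called *MYOF* alone. Medians were 3200, 5389 and 5026 UMIs in positive and 2296, 4291 and 3584 in negative nuclei.

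Likeness of pattern was measured as Pearson's r of log2(CPM + 1) over 28 sums (4 libraries by 7 cell types) against 11847 genes, as a description, since the sums share libraries and depth. For *ANXA1* the 5 most alike were *YBX3* (r = 0.945), *TMEM176B* (0.920), a gene without a symbol (0.919), *PLP2* (0.914) and *NFKBIA* (0.901), and *ANXA2* came next (0.894). For *ANXA2* they were *PLP2* (0.955), *TNFAIP1* (0.923), *VIM* (0.910), *CREM* (0.906) and *PNP* (0.895), with *ANXA1* next. For *S100A6* they were *LGALS3BP* (0.962), *B2M* (0.954), *MFSD5* (0.946), *AURKAIP1* (0.945) and *RPL27A* (0.945). There *ANXA2* (0.762) stood at place 501 and *ANXA1* (0.705) at place 753.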

How the data were processed

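The deposited tables hold counts of UMIs per gene and nucleus, which the authors made with Cell Ranger 3.1.0 on a marmoset genome, filtered and annotated with Seurat, separately for the 3 injured libraries and the control pool. Doublets were removed with Scrublet in the injured cohort and by a limit on genes per nucleus in the control cohort. Cell types and clusters were taken as deposited. Nuclei of a cell type were summed within each library. The 3 genes and all gene lists were chosen with earlier results of these data known. Tests used edgeR 4.0.16 (TMM, filterByExpr, quasi-likelihood) under R 4.3.3 over all genes of a fit, with Benjamini-Hochberg adjustment, and DESeq2 1.42.0 as an alternative. Within injured animals, animal was a block, since both classes come from the same animal. Named genes were every list member called, and per cell type the 10 largest rises and 5 largest falls, among called genes that moved alike in 3 animals, in nuclei with *ANXA2*. Some genes that met this rule are not reported here. Libraries held 22832703 to 48722394 UMIs.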

Additional observations from a re-analysis of the deposited data

Results flagged for a closer look

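*S100B* was called by edgeR in opposite directions in 2 cell types of the injured animals. With *ANXA2* its log2 fold change was −0.61 in astrocytes and 0.71 in OPC, in the same 3 animals, and the difference between the cell types was not tested. DESeq2 made neither call (adjusted p = 0.0918 in astrocytes and 0.0185 in OPC).

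*MYOF* was called in opposite directions between the cohorts, with a log2 fold change of −1.18 in Endo and 2.94 in astrocytes. Both calls were lost at 1000 UMIs (edgeR adjusted p = 0.0102 and 0.0144) and without F1619 (0.0125 and 0.0178). The control is 1 library, and the astrocyte value passed the limit on nuclei through the injured cohort alone (3.03% of control nuclei). The difference between the cell types was not tested. Control Endo nuclei held 5287 CPM of summed fibroblast markers and 1053 CPM of endothelial markers, against 1315 to 2521 CPM and 5820 to 6845 CPM in injured animals, and the part of these markers in the *MYOF* value was not tested.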

How the results depend on the processing

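For differences called between nuclei with and without *ANXA2*, 58 alternatives kept direction and call, 24 lost the call and 1 reversed, and for those by *RTN4* 9 kept and 7 lost it. For differences not called, 19 and 8 alternatives kept the direction without a call and 3 of the first reversed. Without the replicate block, which leaves animals unpaired, log2 differences of *ANXA1* were 0.92 in astrocytes, 1.07 in microglia, 1.43 in OPC and 0.61 by *RTN4*, those of *S100A6* 0.67 in astrocytes, 1.18 in Endo, 1.17 in microglia and 1.17 in Oligo, and that of *ANXA2* by *RTN4* 1.47, none called. At 1000 UMIs *ANXA1* gave 0.76 in astrocytes, 0.61 in microglia and 0.46 by *RTN4*, and *S100A6* −0.016 in astrocytes (reversed), 0.69 in OPC and 0.81 in Oligo. With depth-paired nuclei *ANXA1* in OPC gave 1.12 and *S100A6* gave 1.14 in Oligo and 0.15 in InN (reversed, uncalled throughout). With DESeq2 *S100A6* gave 0.66 in astrocytes and 1.14 in Oligo, *ANXA1* 1.39 in OPC and 0.64 by *RTN4*, and *ANXA2* 1.52 by *RTN4*, none called. Within clusters, chosen after seeing the data, *ANXA1* was not called in Endo cluster 20 (0.60) or microglial cluster 16 (0.44), nor *S100A6* in microglial clusters 16 (0.35) and 21 (1.14). Leaving out 1 animal gave 0.56 to 0.70 for *S100A6* in astrocytes, 1.08 to 1.18 in Oligo and −0.55 to 0.012 in InN (reversed without F1711), 0.77 to 2.003 for *ANXA1* in OPC, −0.024 to 0.49 in ExN (reversed without F1619) and 0.47 to 0.78 by *RTN4*. Of list members between cohorts, 10 were called higher and 6 lower at an adjusted p limit of 0.05, 6 higher with no count filter, and 1 and 1 at 1000 UMIs, and leave-outs gave 2 to 12 higher and 2 to 5 lower. Log2 cohort ratios moved for *ANXA1* to 3.36 (astrocytes) and 4.11 (ExN) and for *ANXA2* to 2.34 (ExN) and 2.24 (InN) with at most 2500 genes per nucleus. At 1000 UMIs they moved to 0.58 for *ANXA1* in Endo and to 2.12 and 2.16 for *ANXA2* in ExN and InN, and for *ANXA2* in Endo to 1.26 with injured cluster 20 alone. The causes were not tested. One control library and few control nuclei in Endo, microglia and OPC limit every cohort value.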
